A study of Homo sapiens with 4 samples.

Results

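Spectrins, plakins and the dystrophins are giant linker proteins of the cytoskeleton. This report describes their mRNAs in RNA precipitated with the tagged fragile X protein FMRP, for the 9 genes SPTAN1, SPTBN1, MACF1, DST, PLEC, EPPK1, DSP, UTRN and DMD. The 9 genes were chosen with earlier results of these data known. Their probe sets were taken by gene symbol alone: every array probe set whose only symbol in the platform annotation is among the 9. This gave 49 of the 54675 probe sets on the array, or 9 of the 19775 genes that have a probe set with a single symbol. A probe set is a group of short probes that report 1 transcript or a group of transcripts. SPTBN1 had 11 of them, DST 10, MACF1 8, SPTAN1 and EPPK1 5 each, DMD 4, UTRN 3, PLEC 2 and DSP 1.

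The samples came from a stable HEK293 line, human embryonic kidney cells of the Flp-In T-REx type, whose transgene for FlagHA-tagged FMRP was switched on with 1 µg/ml doxycycline for 16 h. In the lysate group, 2 samples of total RNA were taken from the cleared lysate before precipitation. In the immunoprecipitate (IP) group, 2 samples of RNA were recovered with anti-FLAG M2 beads washed at 300 mM KCl. All 4 samples carry the induced transgene, and no mock precipitate or uninduced sample is among them. RNA bound to FMRP therefore cannot be told apart from RNA held by the beads or the antibody. From each sample 2 µg of RNA was labelled and hybridized to 1 Human Genome U133 Plus 2.0 array, so a change between the groups is a shift in a transcript's share of the RNA and not in its amount per cell. The labels do not say whether the replicates were separate cultures, so the p-values measure only the spread between these arrays, which may be technical.

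Spectrin chains pair as alpha and beta subunits into flexible rods that cross-link actin under the plasma membrane. Plakins tie intermediate filaments, actin and microtubules to each other and to cell junctions. Dystrophin and its relative utrophin join actin to the dystroglycan complex in the membrane. FMRP is an RNA-binding protein that acts on the translation of the mRNAs it binds.

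All values are log2 signals, and a change is the IP mean minus the lysate mean on that scale. A probe set entered the test when its mean over the 4 arrays reached 4.70, the median over all probe sets. Of the 49 probe sets, 29 did so and 20 lay below. Each gene was represented by its tested probe set with the highest mean, and calls are limma tests with Benjamini-Hochberg adjustment at 0.05 over 27281 probe sets or 13157 genes. The arrays number 2 per group, which limits the precision. Array medians lay between 4.67 and 4.71, Pearson's r across genes was 0.993 between the lysates and 0.992 between the IPs, and a lysate and an IP array gave 0.873 to 0.903. Of the genes that HEK293 cells usually express, 6 of 7 measured lay above the filter value, among them the keratin genes KRT8 and KRT18, vimentin and the neurofilament gene NEFL. Of all 19775 genes, 13157 had a probe set that reached the filter value, which is not a detection limit. Skeletal muscle markers had 2 of 8 above it (TNNT1 and TNNT3), keratinocyte markers 1 of 5 (KRT10), blood markers 1 of 4 (HBB), and fibroblast and endothelial markers 3 of 6. The summed linear signal was 281 and 316 in the lysates against 269 and 292 in the IPs for the muscle list, and 720 and 652 against 236 and 231 for the keratinocyte list, where KRT10 carries the difference. In the lysates it was 13479 and 14194 for the HEK293 list, 93.3 and 87.6 for blood, and 260 and 239 for fibroblast and endothelium. The IPs stood at 15398 and 16013, at 96.0 and 105, and at 278 and 301 for these lists. The muscle gene ACTA1 and the keratinocyte gene KRT14 had no array above 4.31 and 3.20. The part of these markers in the results was not tested.

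Nearly all of these giant linker mRNAs took a larger share of the IP than of the lysate. Of the 9 genes, 8 were higher in the IP and none was lower by the limma test, since all 9 changes were above 0; DMD did not pass. Over all genes tested, 35% were called higher and 28.8% lower. Because the 9 genes were chosen with earlier results of these data known, their counts beside all genes are a description and no support. A rise of at least 2-fold was reached by 6 of the 9, against 12.5% of all genes, and one of at least 4-fold by 2 of the 9, against 0.768%. Both IP arrays lay above both lysate arrays for all 9 genes, including DMD, a pattern found in 45.1% of all genes. The median change of the 9 was 1.40, where the median of all genes was 0.08 with quartiles of -0.48 and 0.61. The representing probe sets of all 9 genes had lysate means above the filter value, so none entered through the IP alone. The choice among a gene's probe sets used the mean over all 4 arrays, however, so IP values took part in it. For EPPK1, 232164_s_at had the higher lysate mean (7.81 against 7.78 for 232165_at) and the smaller change (2.74 against 2.90).

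**Figure D1:**
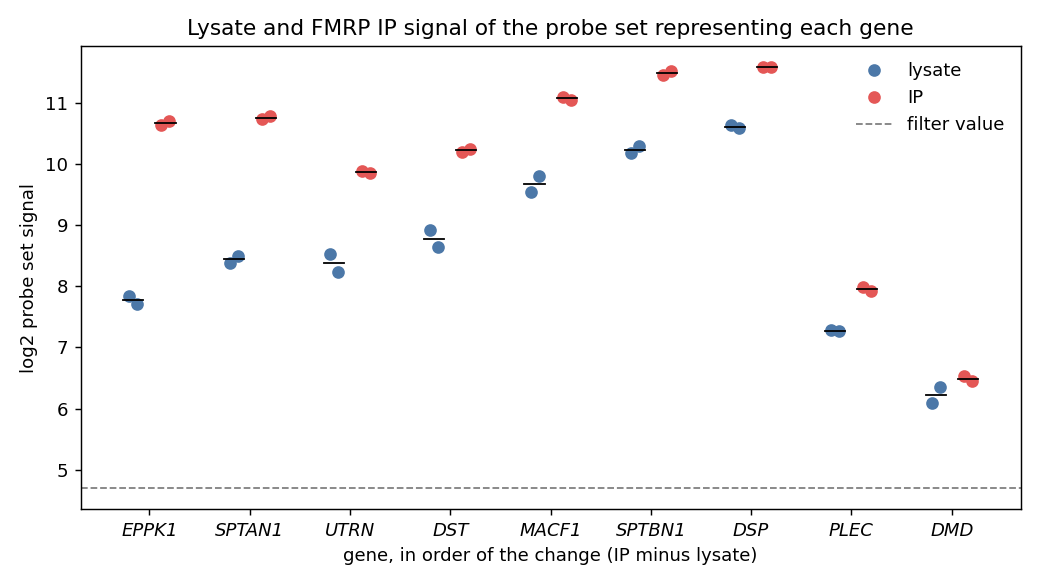
Log2 signal (vertical axis) of the probe set representing each of the 9 genes (horizontal axis, ordered by change) on the 2 lysate arrays (blue) and the 2 IP arrays (red), with group means as black lines and the filter value of 4.70 dashed. The groups are apart for every gene, by 2.80 at the closest arrays for EPPK1 and by 0.08 for DMD; levels of different probe sets are not comparable with each other.

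Both spectrin subunit mRNAs were higher in the IP, and the order of their changes depended on the probe sets read. SPTAN1 encodes the alpha chain found outside red blood cells. Its representing probe set, 215235_at, read 8.39 and 8.50 in the lysates and 10.74 and 10.78 in the IPs. The arrays of each group were close together and the groups far apart. SPTAN1 was 4.99-fold higher in the IP (change 2.32 ± 0.12 SE, n = 2 against 2, limma adjusted p = 3.4e-05), rank 26 among the rises of 13157 genes.

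SPTBN1 encodes the main beta chain that pairs with it. Its probe set 212071_s_at read 10.18 and 10.30 in the lysates and 11.47 and 11.52 in the IPs, again without overlap. SPTBN1 was 2.39-fold higher (change 1.25 ± 0.12 SE, limma adjusted p = 7.5e-05). The change of the alpha chain mRNA exceeded that of the beta chain mRNA by 1.06 (95% interval 0.75 to 1.38, limma adjusted p = 0.0038), a difference tested within each array on the representing probe sets. With the mean of each gene's tested probe sets the order turned, SPTAN1 at 1.32 and SPTBN1 at 1.41, and by its probe set 226765_at SPTBN1 changed by 2.46.

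Among the plakins, by the representing probe sets, the change was largest for EPPK1 and smallest for PLEC, though the difference of PLEC from DSP did not pass. The unique MACF1 probe set 241896_at (0.48) lay below PLEC (0.68), a difference that was not tested. That probe set had a lysate mean of 4.64 and passed the filter only through its IP arrays. EPPK1 encodes epiplakin, which is built from plakin repeats and binds keratin and vimentin filaments. Its probe set 232165_at read 7.84 and 7.71 in the lysates against 10.64 and 10.71 in the IPs. EPPK1 was 7.48-fold higher (change 2.90 ± 0.12 SE, limma adjusted p = 3.4e-05), rank 4 of all rises.

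MACF1 and DST are paralogs whose products cross-link actin and microtubules, with further DST isoforms that hold intermediate filaments at junctions. MACF1 (208634_s_at) read 9.55 and 9.80 in the lysates and 11.11 and 11.05 in the IPs, a rise of 2.65-fold (limma adjusted p = 7.3e-05). DST (215016_x_at) read 8.92 and 8.64 against 10.21 and 10.25, a rise of 2.73-fold (limma adjusted p = 7.3e-05). The lysate arrays of both genes were further apart than the IP arrays, and no lysate array reached an IP array. The difference between the paralogs' changes was 0.04 (DST minus MACF1, 95% interval -0.45 to 0.54, limma adjusted p = 0.887). Both probe sets are of classes that can bind more than 1 transcript, and whether the paralogs share signal in them was not tested. No unique DST probe set reached the filter, and the unique MACF1 probe set tested, 241896_at, changed by 0.48.

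DSP encodes desmoplakin, the plakin that anchors keratin filaments at desmosomes. Its single probe set, 200606_at, read 10.64 and 10.59 in the lysates and 11.59 in both IPs. DSP was 1.96-fold higher (change 0.97 ± 0.11 SE, limma adjusted p = 2.0e-04), just under the 2-fold mark.

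PLEC encodes plectin, a linker of intermediate filaments to actin, microtubules and hemidesmosomes. Its probe set 201373_at read 7.28 and 7.26 in the lysates against 7.99 and 7.92 in the IPs, close within each group. PLEC was 1.61-fold higher (change 0.68 ± 0.11 SE, limma adjusted p = 0.0012). The gene lies next to EPPK1 on chromosome 8, with no other gene between them in the GRCh38.p14 gene table, and the change of EPPK1 exceeded that of PLEC by 2.22 (95% interval 1.88 to 2.56, limma adjusted p = 0.0019).

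The dystrophin relatives split as well. UTRN encodes utrophin, which is present in many tissues outside muscle. Its probe set 225093_at read 8.53 and 8.24 in the lysates and 9.88 and 9.85 in the IPs, so the lysates spread more than the IPs and did not overlap them. UTRN was 2.80-fold higher (change 1.49 ± 0.14 SE, limma adjusted p = 6.9e-05).

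DMD encodes dystrophin, known best from skeletal muscle. Its probe set 203881_s_at read 6.09 and 6.36 in the lysates and 6.53 and 6.44 in the IPs. The change of 0.26 had a 95% interval of -0.05 to 0.58 (limma adjusted p = 0.122), and the IP arrays lay only 0.08 to 0.44 above the lysate arrays. The change of UTRN exceeded that of DMD by 1.22 (95% interval 0.71 to 1.73, limma adjusted p = 0.0091). The other 3 DMD probe sets lay below the filter, with array values from 1.87 to 4.38.

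**Figure D2:**
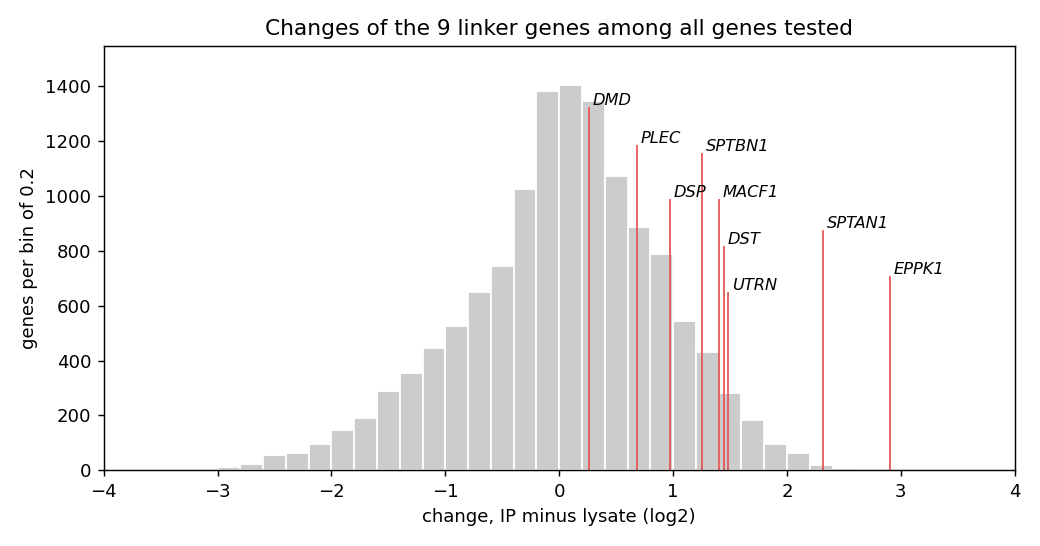
Histogram of the change, IP minus lysate (horizontal axis, log2), of all 13157 genes tested, with the number of genes per bin on the vertical axis and red lines at the changes of the 9 linker genes (line heights only keep the names apart). EPPK1 at 2.90 and SPTAN1 at 2.32 lie in the far right tail, UTRN, DST and MACF1 between 1.40 and 1.49, and DMD at 0.26 near the middle.

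Ordered by their change, the 9 genes ran from EPPK1 through SPTAN1, UTRN, DST, MACF1, SPTBN1, DSP and PLEC to DMD. The differences between genes were tested after the values had been seen, for all 36 pairs, within arrays and in 1 fit with the pairs of probe sets described below (10395 pairs, of which 35.3% were called). Of the 36, 26 differed; nearly all the other pairs in the fit join probe sets of 1 gene, so that share is no background for this count, and nothing particular to the 9 genes is read from it. Of the neighbours in the order, only EPPK1 and SPTAN1 (0.59, limma adjusted p = 0.0282) and SPTAN1 and UTRN (0.83, limma adjusted p = 0.0165) differed. The steps between UTRN, DST, MACF1 and SPTBN1 were 0.15 or less. From SPTBN1 to DSP the step was 0.28, from DSP to PLEC 0.29 and from PLEC to DMD 0.42, with limma adjusted p of 0.161, 0.135 and 0.0795. EPPK1 and SPTAN1 each differed from all the other genes, and DMD from all but PLEC.

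The genes with the profile most like the median of the 9, each gene centred on its own mean over the 4 arrays, were ECE1, GLE1 and SRSF11. Their Euclidean distances were 0.104, 0.106 and 0.107 on the log2 scale, and their changes 1.29, 1.29 and 1.25.

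The further probe sets of each gene show how far a gene's value depends on the probe set read. Of the 29 tested, 23 were higher in the IP and 1 was lower, where 31.5% of all probe sets were called higher and 28% lower. The IP arrays lay above the lysate arrays in 25 of the 29 and below them in 1; over all probe sets these patterns made up 42.7% and 37.4%. These counts describe the probe sets that passed the filter, and 242220_at of SPTBN1 (lysate mean 3.96), 241896_at of MACF1 (4.64) and 216971_s_at of PLEC (4.64) passed only through their IP arrays. By the array maker's naming, 19 of the 29 belong to classes that can bind more than 1 transcript (suffix s or x), and 10 are unique.

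**Figure D3:**
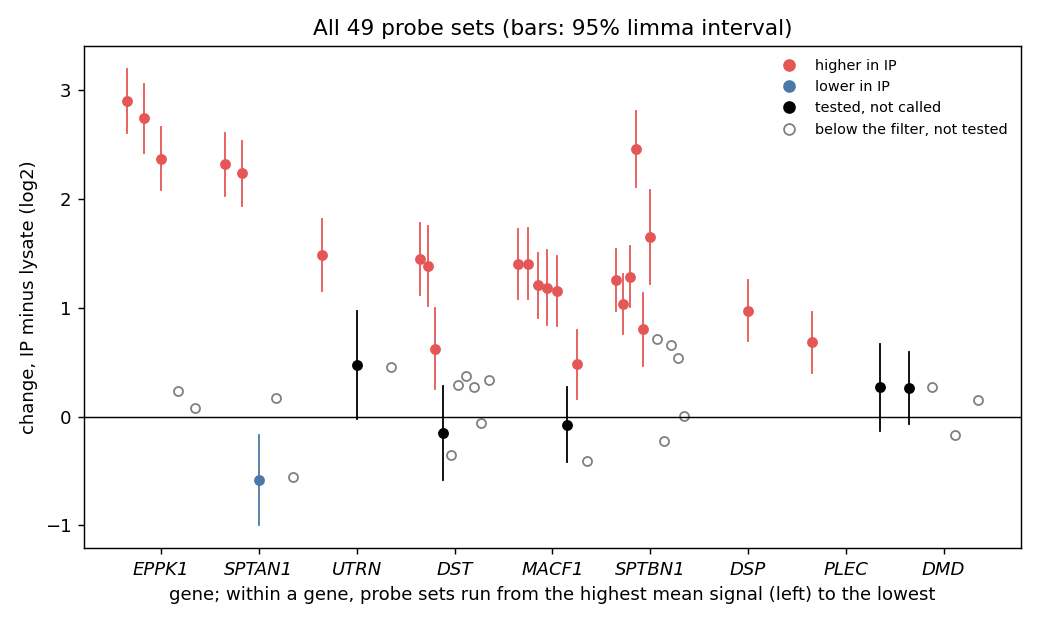
Change, IP minus lysate (vertical axis, log2), of all 49 probe sets, grouped by gene (horizontal axis) and ordered within a gene from the highest mean signal to the lowest. Filled points are the 29 tested with 95% limma intervals (red higher, blue lower, black not called) and open points the 20 below the filter. SPTAN1 shows 2 probe sets above 2 and 1 called lower, and the open points lie between -0.56 and 0.72.

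To compare probe sets of 1 gene, the gene's representing probe set was subtracted from each further probe set on the same array. The difference was tested over 10359 such pairs in all genes. Of the 20 pairs in these genes, 8 differed, close to the 35.1% of all pairs. The further probe set had the smaller change, with a call, in 7 of the 20 pairs, against 20.8% of all pairs. Among called pairs alone these are 7 of 8 here and 2156 of 3636 over all genes. The representing probe set was chosen by its mean over all arrays, IPs included. A probe set with a larger rise was thus favoured as the reference, here and in all genes. How far that choice produced the smaller changes of further probe sets was not tested, and nothing is read from the excess.

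SPTAN1 held the widest disagreement. Its probe set 208611_s_at read 7.69 and 7.85 in the lysates and 9.96 and 10.06 in the IPs, and its change of 2.23 was 0.08 below that of 215235_at (95% interval of the difference -0.40 to 0.24). Another probe set, 241150_at, read 5.29 and 5.56 in the lysates and 4.64 and 5.04 in the IPs and was lower in the IP (change -0.59, limma adjusted p = 0.0241). It differed from 215235_at by -2.90 (95% interval -3.32 to -2.48, limma adjusted p = 0.0020). The call of 241150_at was lost without lysate replicate 2 (-0.45, limma adjusted p = 0.132) and without IP replicate 1 (-0.39, limma adjusted p = 0.0963), and with no filter (limma adjusted p = 0.0814). Its difference from 215235_at passed under every alternative run that kept it.

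In SPTBN1 a further probe set had the larger change. All 6 tested probe sets were higher, with changes of 1.25, 1.03, 1.29, 2.46, 0.80 and 1.65 from the highest mean signal to the lowest. The last, 242220_at, had a lysate mean of 3.96 and passed the filter only through its IP arrays. Its place in that count is therefore no support. With hybridization control centring 200671_s_at no longer passed (0.32, limma adjusted p = 0.121). The probe set 226765_at read 5.57 and 5.75 in the lysates and 8.26 and 7.97 in the IPs, and its change exceeded that of 212071_s_at by 1.20 (95% interval 0.80 to 1.60, limma adjusted p = 0.0051). By this probe set the change of SPTBN1 (2.46) stood beside that of SPTAN1 (2.32).

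For MACF1, the 5 probe sets with means from 7.78 to 10.38 changed by 1.15 to 1.41, and the difference from 208634_s_at passed for none of the other 4. The probe set 232168_x_at read 6.50 and 6.36 in the lysates and 6.21 and 6.50 in the IPs, so its groups overlapped (change -0.07, limma adjusted p = 0.686). It differed from 208634_s_at by -1.48 (limma adjusted p = 0.0050). The only unique MACF1 probe set tested, 241896_at, changed by 0.48 (limma adjusted p = 0.0177), 0.92 less than 208634_s_at (limma adjusted p = 0.0142), and its own call was lost without lysate replicate 2 (0.42, limma adjusted p = 0.0922) or IP replicate 2 (0.38, limma adjusted p = 0.0828), with no filter (limma adjusted p = 0.0699), with the intensity trend (limma adjusted p = 0.0567) and with hybridization control centring, where its change was 0.0019. The difference was lost without lysate replicate 1 (-0.74, limma adjusted p = 0.0616).

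DST showed the same order. The 2 brightest probe sets changed by 1.45 and 1.39, 212253_x_at by 0.62 (limma adjusted p = 0.0121) and 216918_s_at by -0.15 (limma adjusted p = 0.499). The last read 4.74 and 4.94 in the lysates and 4.93 and 4.46 in the IPs, near the filter value, with overlapping groups. The differences of these 2 dimmer probe sets from 215016_x_at were -0.83 and -1.60 (limma adjusted p = 0.0173 and 0.0068). The call of 212253_x_at was lost without lysate replicate 2 (0.54, limma adjusted p = 0.071), with no filter (limma adjusted p = 0.0507) and with hybridization control centring (0.14, limma adjusted p = 0.566). Leaving out either lysate array (-0.89 and -0.76) or IP replicate 2 (-0.63) ended the call of its difference. The other 6 DST probe sets lay below the filter.

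All 3 tested probe sets of EPPK1 rose by more than 2 on the log2 scale. The probe set 232164_s_at read 7.71 and 7.92 against 10.49 and 10.62 and changed by 2.74. The probe set 208156_x_at read 7.09 and 7.13 against 9.41 and 9.55 and changed by 2.37, which was 0.53 less than 232165_at (limma adjusted p = 0.0327). That difference was lost with no filter (limma adjusted p = 0.0882) and without any 1 of the 4 arrays, at -0.62 to -0.44, while all 3 probe sets were higher in the IP in each of these fits.

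In UTRN the second tested probe set, 213022_s_at, read 5.04 and 4.41 in the lysates and 5.27 and 5.12 in the IPs (change 0.47, limma adjusted p = 0.092). It passed without lysate replicate 1, at 0.78 (limma adjusted p = 0.0117). It differed from 225093_at by -1.01 (limma adjusted p = 0.0082). The second PLEC probe set, 216971_s_at, read 4.43 and 4.84 against 4.99 and 4.82 and did not pass (change 0.27, limma adjusted p = 0.209), nor did its difference from 201373_at (-0.42, limma adjusted p = 0.126).

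The 20 probe sets below the filter had array values from 1.87 to 5.05 and changes from -0.56 to 0.72, with a median of 0.20. The IP arrays were above the lysate arrays in 8, below in 2 and overlapping in 10. The deposited table gives no detection calls, so it is not known which of these values lie at background. No base or protein sequence of the transcripts was used here, so where in each transcript a probe set lies, which isoform it reads, and how the changes relate to coding length were not analysed here.

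All changes depend on how the arrays are scaled to each other. With each array centred on its 18 hybridization control probe sets, whose median lay 0.48 higher in the IPs, the median of all genes moved from 0.08 to -0.40, and the share of calls that were higher went from 54.9% to 24.7%. On that scale 7 of the 9 genes were higher and none lower by the limma test, against 15.9% higher and 48.5% lower over all genes, with a median change of 0.92. EPPK1 stood at 2.42, SPTAN1 at 1.84, UTRN at 1.01, DST at 0.97, MACF1 at 0.92, SPTBN1 at 0.78 and DSP at 0.49. Beside 241150_at of SPTAN1, the probe sets 232168_x_at of MACF1 (-0.55) and 216918_s_at of DST (-0.63) were lower on that scale. PLEC no longer passed (0.20, limma adjusted p = 0.275) and DMD turned to -0.22 (limma adjusted p = 0.253). The differences between genes and between probe sets of 1 gene are taken within arrays and do not change with this scaling.

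**Figure D4:**
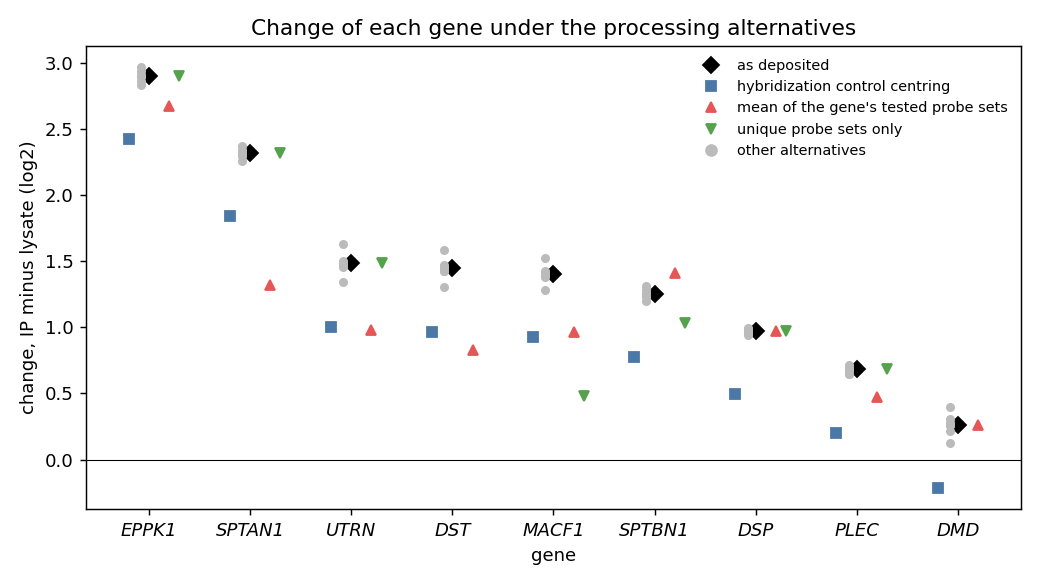
Change, IP minus lysate (vertical axis, log2), of each of the 9 genes (horizontal axis) with the deposited values (black), with hybridization control centring (blue), with the mean of the gene's tested probe sets (red), with unique probe sets only (green; absent for DST and DMD) and under the other alternatives (grey). EPPK1 stays at 2.42 or above in all of them, while SPTAN1 falls to 1.32 with the mean of its probe sets and MACF1 to 0.48 with its unique probe set.

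The choice of probe set moved the values of several genes. With the mean of all tested probe sets, SPTAN1 changed by 1.32, UTRN by 0.98, DST by 0.83, MACF1 by 0.97 and PLEC by 0.47, while SPTBN1 changed by 1.41 and EPPK1 by 2.67. All 8 called genes passed in that setting, where 34.4% of all genes were called higher. The means of SPTBN1, MACF1 and PLEC include probe sets that passed the filter only through their IP arrays. With unique probe sets only, 7 genes could be tested and all were higher, against 33.7% of all genes higher and 28.6% lower. SPTBN1 stood at 1.03 and MACF1 at 0.48. MACF1 entered only by 241896_at, which passed the filter through its IP arrays, so its place in that count is no support.

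Genes for the proteins that work with these linkers were less uniform, apart from the list of other spectrins and spectrin repeat proteins. That list leaves out DRP2, a relative of dystrophin counted in the dystroglycan list. The 5 partner lists hold 92 genes, 67 of them tested, of which 35 were higher and 7 lower, with a median change of 0.38. All the list counts stand beside 35% higher and 28.8% lower over all genes. With hybridization control centring 16 were higher and 24 lower, where all genes gave 15.9% and 48.5%, a turn towards lower calls in both.

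The other spectrins and proteins with spectrin repeats had the highest median of the 5 lists. All 10 tested of 16 were higher, with changes from 0.75 to 2.12 and a median of 1.21; 8 were higher and none lower with hybridization control centring (median 0.73). TRIO, which encodes a large signalling protein with spectrin repeats, read 7.39 and 7.74 in the lysates and 9.65 and 9.72 in the IPs and was 4.35-fold higher (limma adjusted p = 3.5e-05). Its other probe sets changed by 2.57, 2.24, 2.12, 0.47 and 0.13. SYNE1, the gene of a giant nesprin that ties the nuclear envelope to actin, read 5.47 and 5.39 against 7.48 on both IPs and was 4.13-fold higher (limma adjusted p = 3.4e-05), with other probe sets at 0.99 and 0.47.

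Of the membrane skeleton partners of spectrin, 16 of 18 were tested, and 8 rose and 2 fell (median 0.29). With hybridization control centring 3 were higher and 7 lower (median -0.19), near the shares of 15.9% and 48.5% over all genes. TMOD1, which caps actin filaments, rose 2.73-fold (limma adjusted p = 9.5e-05), and ADD1, an adducin that recruits spectrin to actin, rose 2.42-fold (limma adjusted p = 1.7e-04); both probe sets can cross-hybridize. TMOD3, a second capping protein of the same family, read 8.25 on both lysates and 6.89 and 6.63 on the IPs and was 2.81-fold higher in the lysate (change -1.49, limma adjusted p = 6.1e-05).

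Among other plakins and junction partners, 6 of the 12 tested of 18 rose and 1 fell (median 0.48); hybridization control centring gave 3 and 3. Over all genes 35% rose and 28.8% fell, and 15.9% and 48.5% with that centring. PPL, the gene of the plakin periplakin, read 4.42 and 4.91 in the lysates and 6.32 and 6.33 in the IPs (change 1.66, limma adjusted p = 1.1e-04). Its lysate mean of 4.67 lay below the filter value, so it passed only through its IP arrays and its place among the 6 is a description. PKP2, a desmosomal plakophilin that binds desmoplakin, was 2.30-fold higher (limma adjusted p = 8.7e-05). Its probe set can cross-hybridize, as can that of CD151. CD151, a tetraspanin of hemidesmosomes, was lower at -0.42 (limma adjusted p = 0.0194). Its call was lost with no filter and when either lysate array or IP replicate 2 was left out, and no gene of the list then fell.

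In the dystroglycan complex, 2 of the 7 tested of 16 rose and 3 fell (median 0.0035); hybridization control centring gave 0 and 4 with a median of -0.48, and unique probe sets alone a median of -0.38. With 7 genes these counts are near the 35% and 28.8% of all genes. The dystrobrevin genes DTNA and DTNB, relatives of dystrophin, rose 1.70-fold and 1.58-fold (limma adjusted p = 7.1e-04 and 0.0014). The DTNB probe set can cross-hybridize. Other DTNA probe sets changed by 0.58 and 0.73, and by 0.31 and 0.32 without passing (limma adjusted p = 0.084 and 0.0546). DRP2, another relative of dystrophin, did not pass, and its groups overlapped (change 0.0035, limma adjusted p = 0.983). SGCB, which encodes a sarcoglycan, read 8.63 and 8.54 in the lysates and 7.29 and 7.31 in the IPs and was 2.44-fold higher in the lysate (limma adjusted p = 6.5e-05), with other probe sets at -1.11 and -1.90.

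Among the filaments and plus-end proteins that the linkers bind, most did not pass. Of the 22 tested of 24, 9 rose, 1 fell and 12 were not called (median 0.16); hybridization control centring gave 2 higher and 10 lower (median -0.32). The 9 that rose are near the 35% of all genes, and the 10 lower with that centring are near the 48.5%. The 1 that fell is a smaller share than the 28.8% of all genes called lower with the deposited values. CLIP2 and CLASP1, which act at microtubule plus ends, rose 2.95-fold and 2.43-fold (limma adjusted p = 4.9e-05 and 1.0e-04), and MAPRE2, another plus-end gene, was lower at -0.45 (limma adjusted p = 0.0107). The call of MAPRE2 was lost without lysate replicate 2. Without lysate replicate 1, or with no filter, 5 genes of the list rose.

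**Figure D5:**
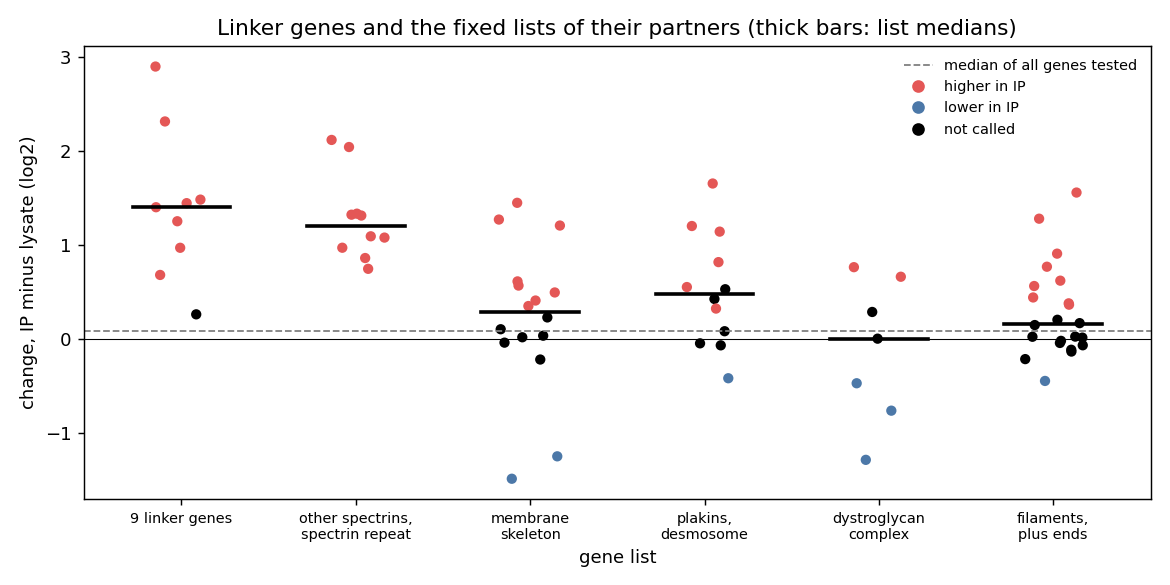
Change, IP minus lysate (vertical axis, log2), of the 9 linker genes and of the tested genes of the 5 partner lists (horizontal axis); red points were called higher, blue lower and black neither, thick bars are list medians and the dashed line is the median of all genes. All 10 tested genes of the spectrin repeat list lie at 0.75 or above, while the other 4 lists hold genes on both sides of 0.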

How the data were processed

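The deposited table holds log2 probe set signals of 54675 probe sets on 4 arrays, 1 per sample (2 lysate, 2 IP). The scale was read from the values. The background correction, summary method and normalization used by the authors before they deposited the log2 values are steps not given in the sources used here, nor is any scan batch. Gene symbols come from the platform annotation, updated through Entrez numbers to the GRCh38.p14 gene table (41037 of 41091 probe sets with 1 symbol matched). The 62 controls were left out.

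The difference between the groups was estimated by limma 3.58.1 under R 4.3.3 (functions lmFit and eBayes, without covariates; for genes, residual and prior degrees of freedom were 2 and 5.51) and adjusted by Benjamini-Hochberg over all probe sets, genes or pairs tested. The scripts were tested on simulated data. Figures used matplotlib 3.10.9. The alternatives were 2 normalizations, 2 filters, the replicate block, an intensity trend, a 2-fold threshold, 2 choices of probe set and each array left out.

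The members, the partner and marker lists and the tests were chosen with earlier results of these data known. From each partner list up to 3 called genes are named, 2 that moved most with the sign of that list's median and 1 that moved most against it. DRP2, which was not called, is named as a relative of dystrophin. The 3 genes nearest in profile are also named. KRT8, KRT18, NEFL and other markers are named from the marker lists. Classes by protein length were planned and not run, as no protein table was used here. The differences between the 9 genes were added after the data were seen.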

Additional observations from a re-analysis of the deposited data

How the results depend on the processing

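With the table as deposited 8 of the 9 genes were higher, and 6 to 8 were in every alternative: 7 with hybridization control centring, 7 of 7 testable with unique probe sets (MACF1 only by 241896_at, which passed the filter through its IP arrays and gives no support), and 6 at a 2-fold threshold, which PLEC and DSP miss. Over all genes 35% were called higher with the table as deposited. That share was 15.9% with hybridization control centring, 33.7% with unique probe sets and 12.5% at a 2-fold threshold. The median change of the linker genes tested was 0.92 with hybridization control centring and 0.97 with the mean of the gene's probe sets. It was 1.03 with unique probe sets, and 1.28 to 1.43 with 1 array left out. Of the probe sets 9 were higher with unique probe sets, where only 10 were tested and 33.7% of all genes were called higher. Among these, 241896_at of MACF1 and 242220_at of SPTBN1 passed the filter only through their IP arrays, so their places in that count are no support. The lower probe sets numbered 3 with hybridization control centring, 0 with no filter, 0 with a filter at a mean of 6, 0 at 2-fold, and 0 to 1 with 1 array left out. The pairs of probe sets of 1 gene that differed numbered 21 of 40 with no filter, 5 of 14 with a filter at 6, 5 at 2-fold and 5 to 7 with 1 array left out. In the partner lists 16 genes were higher and 24 lower with hybridization control centring, 15 and 3 at 2-fold, 22 were higher with unique probe sets, and 11 were lower with the mean of the gene's probe sets; with 1 array left out 29 to 32 were higher and 4 to 7 lower. Over all genes 15.9% were higher and 48.5% lower with hybridization control centring, and 12.5% and 12.8% at 2-fold. With unique probe sets 33.7% were higher, and only 7, 10, 7, 6 and 10 genes of the 5 lists were tested. With the mean of the gene's probe sets 29.5% were lower. The counts of pairs, and the partner counts with 1 array left out, stand without such shares, and nothing is read from them. The cause of the shifts between settings was not tested, beyond the fewer probe sets that a filter or the unique class leaves.

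The replicate number as a block left the counts of genes at 8 higher and 0 lower and raised the higher probe sets to 24, adding 213022_s_at of UTRN. The labels do not say that a number marks a shared culture, and across genes the deviations of same-numbered arrays correlated at 0.10. With 2 arrays a group, leaving 1 out assumes that the lone array varies like the other group.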
